A study of Mus musculus with 6 samples.

Results

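Microbial sensors are the receptors by which cells of the gut wall detect bacteria and viruses. The genes described here are 6 Toll-like receptors (Tlr1, Tlr2, Tlr3, Tlr4, Tlr5 and Tlr9), the intracellular receptors Nod1 and Nod2, and Myd88, the adaptor that carries the signal of most Toll-like receptors. They were chosen by name, and all 9 were found among the 23402 gene symbols of the deposited table. Whole tissue labelled terminal ileum, the end of the small intestine, was taken from 6 mice, each 6 weeks old, and its RNA was sequenced in 1 library per mouse. There were 3 mice of genotype Il17rafl/fl;Atoh1-cre+ and 3 littermates of genotype Il17rafl/fl;Atoh1-cre-. Both groups carried the floxed Il17ra alleles, which encode a receptor subunit for interleukin-17, and both drank dextran sodium sulfate (DSS), a polysaccharide that injures the gut epithelium, until sampling on day 6. Atoh1 is the transcription factor gene of the secretory lineage, so Cre driven by it is directed to Paneth, goblet and enteroendocrine cells and not to absorptive, immune or stromal cells of the same tissue. No mice without DSS were analysed here.

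Toll-like receptors span the surface or endosomal membrane and pair through their cytoplasmic TIR domains with adaptors, of which Myd88 is the main one. Activated receptors recruit IRAK kinases and Traf6 and end in NF-kB and IRF transcription factors. Nod1 and Nod2 lie in the cytosol, bind fragments of bacterial peptidoglycan and signal through the kinase Ripk2 rather than through Myd88. In the small intestine these receptors are shared among epithelium, Paneth cells and immune cells, and a level in whole tissue sums over them.

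Values are FPKM (sequenced fragments scaled to transcript length and library depth), so levels can be compared between genes. From the steps between low values, depth was estimated at 7980000 to 9360000 fragments per library. Il17ra stood at 7.93, 8.36 and 6.07 FPKM in the Cre-positive libraries, against 6.04, 5.91 and 6.53 FPKM in the Cre-negative ones, so the group labels were not checked by this gene. Cre-positive and Cre-negative therefore name the libraries as labelled. Fabp6 and Slc10a2, defining genes of ileal enterocytes, were low outside Cre-negative 3, which had the highest value of both. Fabp6, the ileal bile acid binding protein, lay between 0.316 and 2.41 FPKM in Cre-positive libraries and between 0.316 and 9.79 FPKM in Cre-negative ones, and the bile acid transporter Slc10a2 did not exceed 0.391 FPKM in Cre-positive and 1.94 FPKM in Cre-negative libraries. Sex and B cell content also split the libraries. The libraries Cre-positive 2, Cre-positive 3 and Cre-negative 3 had Xist between 148 and 177 FPKM, as in females, and the others had at most 0.194 FPKM. Libraries Cre-positive 1 and 2 stood apart by B cell genes: the summed level of 6 B cell markers was 62.8, 75.3 and 10.4 FPKM in the Cre-positive libraries, against 15.4, 11.6 and 6.53 FPKM in the Cre-negative libraries. In whole tissue, fewer cells of a type and less RNA per cell cannot be told apart.

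Myd88 and Tlr3 were the most abundant of the sensors, and the remaining receptors were low. Myd88 averaged 17.6 ± 1.77 FPKM over all libraries (SD, n = 6), above 65.5% of the 12695 genes tested, and Tlr3, the endosomal receptor for double-stranded RNA, averaged 12.1 ± 1.15 FPKM, above 53.7% of them. Nod1, the receptor for diaminopimelic acid peptides, averaged 4.13 ± 0.717 FPKM, and Tlr1, the partner of Tlr2 in binding triacylated lipopeptides, 3.89 ± 1.37 FPKM. Below them came Tlr9, the endosomal receptor for unmethylated CpG DNA, with 2.36 ± 1.21 FPKM and Tlr2, the lipoprotein receptor, with 2.09 ± 0.439 FPKM. Tlr4, the lipopolysaccharide receptor, averaged 1.84 ± 0.255 FPKM and Nod2, the muramyl dipeptide receptor, 1.32 ± 0.254 FPKM. Tlr5, the flagellin receptor, was lowest with 0.735 ± 0.271 FPKM (SD, n = 6 for each gene).

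Of the 8 neighbouring pairs in this order, 5 were apart in every library. Myd88 exceeded Tlr3, Tlr3 exceeded Nod1, Tlr1 exceeded Tlr9, Tlr4 exceeded Nod2 and Nod2 exceeded Tlr5 in 6 of 6 libraries. The other neighbours were not apart: Nod1 exceeded Tlr1 in 3 of 6 libraries, Tlr9 exceeded Tlr2 in 2 of 6 and Tlr2 exceeded Tlr4 in 2 of 6. Tlr9 moved below Tlr2 when Cre-positive 1 or Cre-positive 2 was left out, and Nod1 moved below Tlr1 without Cre-negative 3. The gap between Tlr3 and Nod1 was the widest of the 8, with a ratio of means of 2.92. The low levels rest on few fragments: about 13 to 36 per library for Tlr5, 46 to 68 for Nod2, 49 to 80 for Tlr4 and 30 to 117 for Tlr9, against 311 to 429 for Myd88 and 418 to 547 for Tlr3 (estimates from the longest annotated transcript).

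**Figure D1:**
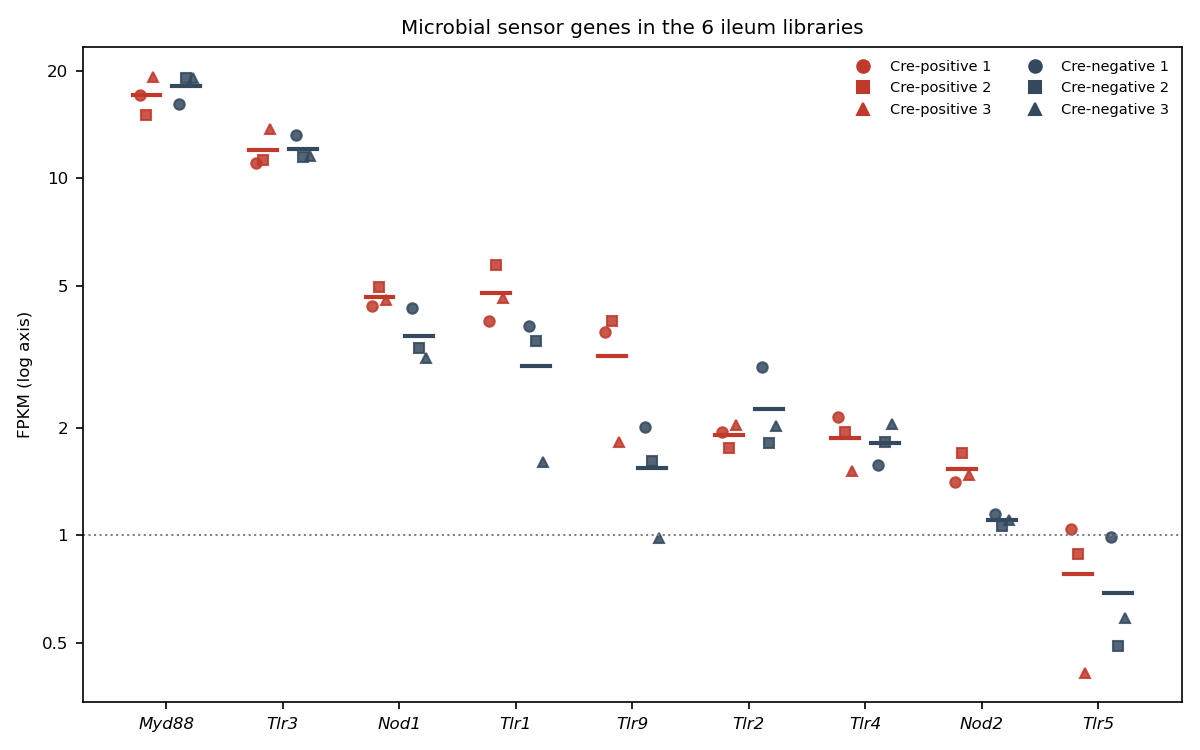
FPKM of the 9 genes on a log axis, with 1 point per library, Cre-positive (red) left of Cre-negative (grey), a bar at each group mean and a dotted line at the filter of 1 FPKM. Myd88 and Tlr3 lie above 10 FPKM in every library, while the other 7 genes lie below 6 FPKM and only the points of Nod1, Nod2 and Tlr1 do not overlap between the groups.

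Between the groups, no sensor passed the test. Tlr5 fell under the filter of a mean of 1 FPKM, and for the 8 genes above it limma (moderated test on log2(FPKM + 1), Benjamini-Hochberg adjustment over all genes tested) called 0 in either direction, where the background was 0 of 12695 genes (0.0%). At an unadjusted p under 0.05 the test gave 2 of the 8, Tlr9 and Tlr1, both higher in Cre-positive ileum, against a background of 2.54% of all genes in that direction and 1.07% in the other. Of the 8, 3 genes, Tlr1, Nod1 and Nod2, had every Cre-positive library above every Cre-negative one, where 5.77% of all genes did, and 0 had the reverse order, where 2.6% did. The median log2 fold change of the 8 was 0.14, beside 0.03 over all genes tested. With Cre-positive 3 alone set against the Cre-negative libraries, a choice made after the B cell genes were seen, 5 of the 8 lay above all Cre-negative libraries, where 32.8% of all genes did. Those 5 were Tlr3 and Myd88 together with Tlr1, Nod1 and Nod2. The latter had to be among them, since they were above that range in every Cre-positive library. Of the 8, 1 gene, Tlr4, lay below all Cre-negative libraries, where 18.4% of all genes did.

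**Figure D2:**
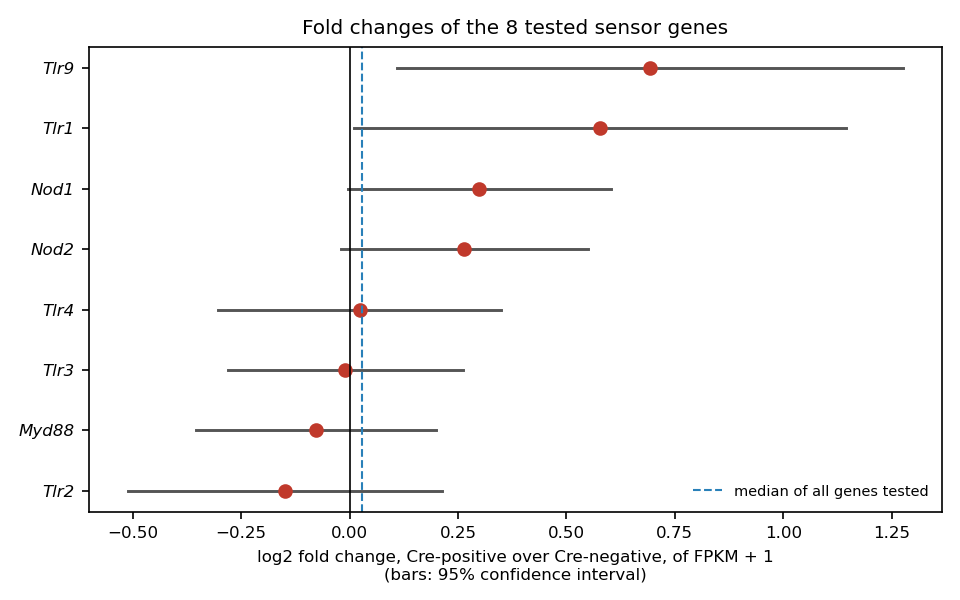
log2 fold change (Cre-positive over Cre-negative, FPKM + 1) of the 8 tested genes with 95% confidence intervals from limma, n = 3 mice per group; the dashed line is the median of all genes tested, 0.03. The intervals of Tlr9 and Tlr1 lie above 0 before adjustment for multiple testing, and those of the other 6 genes include 0.

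The receptors Nod2 and Nod1 were higher in every Cre-positive library than in any Cre-negative one. Nod2 (chromosome 8 from 88647315 to 88688474, GENCODE M21 on GRCm38) reached 1.41, 1.70 and 1.48 FPKM in the Cre-positive libraries, against 1.15, 1.07 and 1.10 FPKM in the Cre-negative ones. All 3 Cre-positive values lay above the Cre-negative range, which was narrow (1.53 ± 0.152 FPKM in Cre-positive and 1.11 ± 0.0409 FPKM in Cre-negative libraries, SD, n = 3 each). The log2 fold change was 0.26 (SE 0.12, 95% confidence interval -0.02 to 0.55, limma adjusted p = 0.998), and the two-sided exact permutation p was 0.1, which is the smallest that 3 against 3 mice can give. About 185 fragments in the Cre-positive and 143 in the Cre-negative libraries stood behind it, which gives a counting standard error of 0.16 on a log2 ratio of means of 0.47. In males Nod2 was at 1.41 FPKM in 1 Cre-positive mouse, against a mean of 1.11 FPKM in 2 Cre-negative mice. In females the mean was 1.59 FPKM in 2 Cre-positive mice, against 1.10 FPKM in 1 Cre-negative mouse. As the groups did not overlap, no split of the mice by sex could reverse the sign.

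Nod1 (chromosome 6 from 54923949 to 54972612) stood at 4.40, 4.96 and 4.57 FPKM in the Cre-positive libraries and at 4.33, 3.35 and 3.15 FPKM in the Cre-negative libraries. The groups did not overlap, but Cre-negative 1 was close to the lowest Cre-positive library. The log2 fold change was 0.30 (SE 0.13, 95% confidence interval -0.0035 to 0.60, limma adjusted p = 0.998, exact permutation p = 0.1). With each library left out in turn it lay between 0.23 (without Cre-negative 3) and 0.41 (without Cre-negative 1). In males 1 Cre-positive library had 4.40 FPKM against a mean of 3.84 FPKM in 2 Cre-negative libraries, and in females the mean was 4.77 FPKM in 2 Cre-positive libraries against 3.15 FPKM in 1 Cre-negative library. The ratio of Nod2 to Nod1 within a library lay between 0.265 and 0.351 and did not separate the groups (mean log2 ratio -1.60 in Cre-positive and -1.69 in Cre-negative libraries, exact permutation p = 0.7).

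Tlr9 and Tlr1 had the largest estimates of the 8 tested sensors, and also the largest standard errors. Tlr9 (chromosome 9 from 106222598 to 106226883) had levels of 3.71, 3.99 and 1.83 FPKM in the Cre-positive libraries, against 2.02, 1.62 and 0.983 FPKM in the Cre-negative ones. Its high values were in Cre-positive 1 and 2, and Cre-positive 3 lay inside the Cre-negative range. The log2 fold change was 0.69 (SE 0.25, 95% confidence interval 0.11 to 1.28, unadjusted p = 0.0256, limma adjusted p = 0.998, exact permutation p = 0.2), and with Cre-positive 3 as the only Cre-positive library it was 0.17. In males it was 3.71 FPKM in 1 Cre-positive library against a mean of 1.82 FPKM in 2 Cre-negative libraries, and in females a mean of 2.91 FPKM in 2 Cre-positive libraries against 0.983 FPKM in 1 Cre-negative library. Tlr9 is a receptor of B cells and plasmacytoid dendritic cells, among other cells. Cre-positive 1 and 2 are the libraries with the high B cell markers given above. All 6 of those markers had estimates above 0, 1 of the 6 did not overlap between the groups (5.77% of all genes in that direction) and 0 of the 6 were at 0 in every library. Ms4a1, the gene of the B cell antigen CD20, had 9.37, 11.3 and 0.302 FPKM in Cre-positive libraries, against 0.154, 0.264 and 0.111 FPKM in Cre-negative ones. The 3 plasmacytoid dendritic cell markers summed to 20.4, 24.8 and 19.99 FPKM in the Cre-positive libraries, against 25.6, 20.8 and 14.1 FPKM in the Cre-negative ones, and overlapped. Bst2 was the largest part of that sum, and Siglech, with a mean of 0.738 FPKM, fell under the filter. The part of these or other cell types in the Tlr9 difference was not tested.

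Tlr1 (chromosome 5 from 64924679 to 64933563) stood at 3.99, 5.73 and 4.64 FPKM in the Cre-positive libraries and at 3.87, 3.50 and 1.60 FPKM in the Cre-negative libraries. The groups did not overlap, and Cre-negative 3 was far below the other libraries. The log2 fold change was 0.58 (SE 0.24, 95% confidence interval 0.01 to 1.14, unadjusted p = 0.0470, limma adjusted p = 0.998, exact permutation p = 0.1), and it was 0.29 without Cre-negative 3. In males 1 Cre-positive library had 3.99 FPKM against a mean of 3.69 FPKM in 2 Cre-negative libraries. In females the mean was 5.18 FPKM in 2 Cre-positive libraries, against 1.60 FPKM in 1 Cre-negative library, which was Cre-negative 3.

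Summed markers of other cell types that can carry these receptors were also uneven. The sum of 5 dendritic cell markers was 16.8, 17.9 and 15.6 FPKM in the Cre-positive libraries, against 14.5, 13.3 and 10.4 FPKM in the Cre-negative ones, with no overlap. Within that list 4 of 4 tested members had estimates above 0 and 2 did not overlap (Flt3 and Batf3), where 5.77% of all genes lay higher without overlap. Itgax, the largest part of that sum, overlapped. The sum of 8 macrophage markers was 235, 189 and 152 FPKM in the Cre-positive libraries and 177, 144 and 130 FPKM in the Cre-negative libraries, and overlapped. All 8 macrophage markers had estimates above 0, none separated the groups, and Lyz2 was the largest part of the sum. The 4 crypt stem cell markers summed to 258 to 518 FPKM in Cre-positive and 339 to 605 FPKM in Cre-negative libraries, and overlapped. Of these 4, 3 had estimates above 0. Lgr5 and Ascl2 lay higher in Cre-positive ileum without overlap, where 5.77% of all genes did. The part of these cells in the Nod1, Nod2, Tlr1 and Tlr9 differences was not tested.

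**Figure D3:**
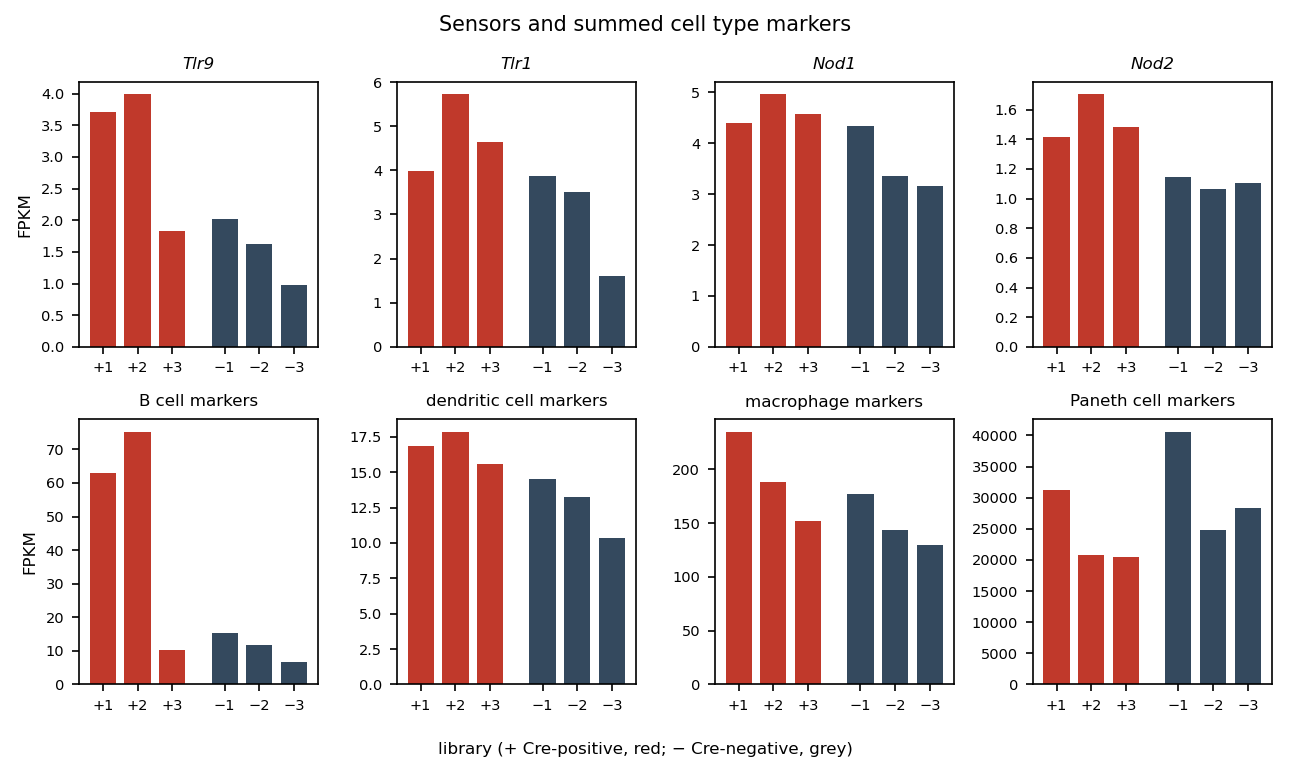
FPKM per library (red, Cre-positive 1 to 3; grey, Cre-negative 1 to 3) of Tlr9, Tlr1, Nod1 and Nod2 above the summed FPKM of markers of B cells, dendritic cells, macrophages and Paneth cells. Tlr9 and the summed B cell markers are both high in Cre-positive 1 and 2 and low in Cre-positive 3. Tlr1, Nod1, Nod2 and the sum of the dendritic cell markers are above the Cre-negative range in all 3 Cre-positive libraries. Of the single dendritic cell markers, only Flt3 and Batf3 are above it in all of them.

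Myd88, Tlr3, Tlr2 and Tlr4 showed small estimates. Myd88 had 17.1, 15.1 and 19.3 FPKM in the Cre-positive libraries and 16.2, 19.1 and 19.1 FPKM in the Cre-negative libraries (log2 fold change -0.08, SE 0.12, 95% confidence interval -0.35 to 0.20, limma adjusted p = 0.998). Its sign turned on rescaling to an equal sum of FPKM (0.03). Myd88 (chromosome 9 from 119335934 to 119341411) overlaps the oppositely oriented Acaa1a, which was listed between 67.4 and 95.4 FPKM in Cre-positive and between 72.6 and 87.2 FPKM in Cre-negative libraries. The libraries were directional, but the sources used here do not give whether counting used strand, so fragments of the overlap cannot be told apart. Tlr3 (chromosome 8 from 45395665 to 45411080) had 11.1, 11.3 and 13.8 FPKM in the Cre-positive libraries, against 13.2, 11.5 and 11.5 FPKM in the Cre-negative ones (log2 fold change -0.01, 95% confidence interval -0.28 to 0.26, limma adjusted p = 0.998), and this sign too turned on rescaling to an equal sum (0.10). Tlr3 overlaps the oppositely oriented Gm45542, which has no row in the table. The groups overlapped for both genes.

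Tlr2 (chromosome 3 from 83836272 to 83841767) stood at 1.95, 1.76 and 2.03 FPKM in the Cre-positive libraries and at 2.96, 1.81 and 2.03 FPKM in the Cre-negative libraries. Only Cre-negative 1 stood out from the rest (log2 fold change -0.15, 95% confidence interval -0.51 to 0.21, limma adjusted p = 0.998). The log2 fold change was -0.0031 without Cre-negative 1 and -0.25 without Cre-negative 2. Tlr4 (chromosome 4 from 66827584 to 66930284) reached 2.14, 1.95 and 1.51 FPKM in the Cre-positive libraries and at 1.58, 1.83 and 2.05 FPKM in the Cre-negative libraries. Its groups covered nearly the same range (log2 fold change 0.02, 95% confidence interval -0.30 to 0.35, limma adjusted p = 0.998), and the sign turned under quantile normalization (-0.05). These intervals do not show that the levels were equal, and that of Tlr2 still holds changes of up to 0.51 on the log2 scale.

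Tlr5 (chromosome 1 from 182954788 to 182976044) had 1.04, 0.885 and 0.413 FPKM in the Cre-positive libraries, against 0.989, 0.491 and 0.588 FPKM in the Cre-negative libraries. The lowest and the highest value both belonged to the Cre-positive group, and an exact permutation test gave p = 0.9. Tlr5 of the mouse small intestine is known from Paneth cells, which are in the Atoh1 lineage. The 8 Paneth cell markers summed to 31287, 20829 and 20404 FPKM in the Cre-positive libraries and to 40615, 24755 and 28295 FPKM in the Cre-negative libraries. All 8 had estimates below 0 and 2 of the 8 did not overlap, where 2.6% of all genes lay lower without overlap. With 77 fragments in the Cre-positive and 72 in the Cre-negative libraries, the log2 ratio of the Tlr5 means was 0.18. Its counting standard error of 0.24 was by itself larger than this difference. The libraries also spread within each group (SD 0.328 FPKM in Cre-positive and 0.264 FPKM in Cre-negative libraries, n = 3 each).

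Ratios within a library are free of the scaling between libraries. Of 11 ratios compared, 1 did not overlap between the groups, Nod2 to Myd88, with mean log2 ratios of -3.48 ± 0.298 in Cre-positive and -4.03 ± 0.184 in Cre-negative libraries (SD, n = 3 each). Its exact permutation p was 0.1, and the smallest Benjamini-Hochberg adjusted value over the 11 was 0.733. Tlr9 to Myd88 had mean log2 ratios of -2.51 ± 0.786 in Cre-positive and -3.61 ± 0.638 in Cre-negative libraries (exact permutation p = 0.2), and Tlr1 to Myd88 had -1.85 ± 0.395 in Cre-positive and -2.69 ± 0.784 in Cre-negative libraries (exact permutation p = 0.2). Tlr3 reached 0.603 to 0.817 of the level of Myd88 in all libraries, and Tlr5 reached 0.0214 to 0.0610 of it. Tlr2 and Tlr4 stood near each other, with ratios between 0.902 and 1.88.

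The promoters of the 4 genes with the highest estimates are shown because the comparison of the groups turns on these genes, as 200 bases from 250 to 51 bases before the RefSeq start (GRCm38.p6, read on the gene's strand). Capitals mark matches to any of 4 motifs searched on both strands.

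Tlr9, chr9:106222348-106222547, plus strand: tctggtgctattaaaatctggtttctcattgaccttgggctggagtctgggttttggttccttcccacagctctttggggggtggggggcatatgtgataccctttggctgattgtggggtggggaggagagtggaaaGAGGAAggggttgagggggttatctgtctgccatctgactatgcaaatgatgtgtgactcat
Tlr1, chr5:64933609-64933808, minus strand: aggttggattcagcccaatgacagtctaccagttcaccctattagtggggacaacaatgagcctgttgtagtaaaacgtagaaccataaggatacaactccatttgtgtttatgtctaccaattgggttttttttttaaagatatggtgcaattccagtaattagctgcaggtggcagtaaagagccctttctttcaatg
Nod1, chr6:54972663-54972862, minus strand: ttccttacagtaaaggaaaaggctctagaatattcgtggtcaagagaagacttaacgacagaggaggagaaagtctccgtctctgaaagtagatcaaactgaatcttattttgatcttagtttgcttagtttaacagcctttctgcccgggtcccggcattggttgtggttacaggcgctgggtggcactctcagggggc
Nod2, chr8:88647097-88647296, plus strand: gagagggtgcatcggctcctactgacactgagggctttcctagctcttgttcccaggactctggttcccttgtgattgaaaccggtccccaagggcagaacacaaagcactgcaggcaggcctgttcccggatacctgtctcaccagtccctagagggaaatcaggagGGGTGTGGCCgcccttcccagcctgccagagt

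The motifs were GGGNNNNNCC (NF-kB), GAAANNGAAA (IRF factors), GAGGAA (the core bound by PU.1, a myeloid and B cell factor) and TTCNNNGAA (STAT factors), which do not overlap each other in these windows. They were found in 37.2%, 2.40%, 18.8% and 5.76% of 32851 RefSeq promoter windows of the same length. Tlr9 held 1 match to GAGGAA, 112 bases before its start, and Nod2 held 1 match to GGGNNNNNCC, 82 bases before its start, while the windows of Tlr1 and Nod1 held none of the 4 motifs. RefSeq windows were found for 8 of the 9 genes, and Tlr4 had no entry. In the other windows, Tlr2 held 3 overlapping matches and Tlr3 held 1 match to GGGNNNNNCC, and Tlr5 and Myd88 held none of the 4.

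Around the sensors, 73 genes of the same pathways were listed by role, and 66 of them passed the filter. Limma called 0 of the 66. At an unadjusted p under 0.05, 5 were higher and 2 lower in Cre-positive ileum, 10.6% of the 66 where the background over all genes in either direction was 3.62%. Of the 66, 4 (6.06%) lay above and 5 (7.58%) below the Cre-negative range in every Cre-positive library, where 5.77% and 2.6% of all genes did. The median log2 fold change was 0.01.

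Slc15a2 and Ripk2, which act with the NOD receptors, had estimates of opposite sign. Slc15a2, a transporter of small peptides that include bacterial muropeptides, had 5.26, 4.99 and 2.91 FPKM in the Cre-positive libraries, against 1.63, 0.542 and 1.72 FPKM in the Cre-negative libraries (log2 fold change 1.24, SE 0.27, unadjusted p = 0.00183, limma adjusted p = 0.998). All 3 Cre-positive libraries lay above the Cre-negative range. With array weights, which let limma weigh libraries unequally, Slc15a2 was the 1 pathway gene called (limma adjusted p = 0.0495). That setting called 24 of all 12695 genes, where the fit as reported called 0. The other Slc15a genes of the list, chosen here for comparison, overlapped between the groups. Slc15a1, with a mean of 208 FPKM over all libraries, had a log2 fold change of -0.02, Slc15a3 had 0.18 and Slc15a4 had 0.07. Ripk2, the kinase that both NOD receptors recruit, had 2.70, 2.56 and 3.29 FPKM in the Cre-positive libraries, against 3.82, 3.75 and 3.76 FPKM in the Cre-negative libraries, with all Cre-positive values lower (log2 fold change -0.32, SE 0.12, limma adjusted p = 0.998). The ratio of Nod2 to Ripk2, chosen after the values were seen, was 0.524, 0.667 and 0.449 in Cre-positive and 0.300, 0.284 and 0.294 in Cre-negative libraries. With Nod2 higher and Ripk2 lower in every Cre-positive library, this ratio had to separate the groups and adds nothing to those 2 results. Lyz1, the Paneth cell lysozyme that cuts peptidoglycan, had the highest level of the list and overlapped between the groups (log2 fold change -0.23), and the myeloid lysozyme Lyz2 had a log2 fold change of 0.62. The 2 lysozyme genes are closely similar in sequence, so the split of fragments between them is uncertain.

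Among the adaptors and kinases, 14 of 17 passed the filter, and 9 of the 14 estimates were below 0. Of the 14, 4 did not overlap, all lower in Cre-positive ileum, where 2.6% of all genes lay lower without overlap. These were Ripk2, Tab3, which couples Traf6 to the kinase TAK1 (8.28, 7.20 and 7.75 FPKM in Cre-positive and 8.996, 9.24 and 9.23 FPKM in Cre-negative libraries), the kinase Ripk1 (log2 fold change -0.25) and Tirap (-0.13), the adaptor that brings Myd88 to Tlr2 and Tlr4. Ripk1 and Tirap were named after their values were seen. Xiap, a ubiquitin ligase of the Nod2 complex and the highest of the list, had a log2 fold change of -0.08.

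Among co-receptors and trafficking proteins, 2 of 10 genes, Cd180 and Ly86, did not overlap between the groups. Both were higher in Cre-positive ileum, where 5.77% of all genes lay higher without overlap. They form a receptor complex of B cells and myeloid cells related to that of Tlr4. Cd180 had 5.10, 5.59 and 2.54 FPKM in the Cre-positive libraries and 2.16, 1.29 and 0.778 FPKM in the Cre-negative libraries (log2 fold change 1.15, SE 0.29, limma adjusted p = 0.998). Ly86 had 13.1, 10.2 and 8.06 FPKM in the Cre-positive libraries, against 7.06, 6.89 and 6.90 FPKM in the Cre-negative libraries (log2 fold change 0.51, SE 0.16, limma adjusted p = 0.998). Both were highest in Cre-positive 1 and 2, the libraries with high B cell markers. Cd14 and Ly96, chosen here as the partners of Tlr4 in binding lipopolysaccharide, had log2 fold changes of -0.20 and -0.08, and Hsp90b1, the chaperone of Toll-like receptors and the highest of the list, had 0.08.

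Of the other Toll-like receptors, 4 of 6 passed the filter and all 4 estimates were above 0. Tlr7, the endosomal receptor for single-stranded RNA, had 2.45, 2.16 and 2.22 FPKM in the Cre-positive libraries and 1.67, 1.97 and 1.29 FPKM in the Cre-negative libraries, without overlap (log2 fold change 0.32, SE 0.14, limma adjusted p = 0.998). Tlr8 and Tlr12 had log2 fold changes of 0.05 each, and Tlr12 was the highest of the list. In the list of IKK, NF-kB and IRF genes, 7 of 13 estimates were above 0 and 0 separated the groups, with Irf5 at 0.35 and Irf7 at -0.40. Among the negative regulators, Nfkbia, the NF-kB inhibitor that is itself an NF-kB target, had 66.2, 59.9 and 48.1 FPKM in Cre-positive libraries and 43.9, 46.9 and 48.4 FPKM in Cre-negative libraries (log2 fold change 0.31, limma adjusted p = 0.998). The deubiquitinase gene Fam105b (Otulin) had 0.17 and Erbb2ip, which binds Nod2, -0.08. Of the cytosolic nucleic acid sensors, 6 of 8 estimates were below 0, among them Ifih1, the sensor MDA5 (-0.27), its adaptor Mavs (-0.15, lower in every Cre-positive library) and Trim25 (-0.08).

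**Figure D4:**
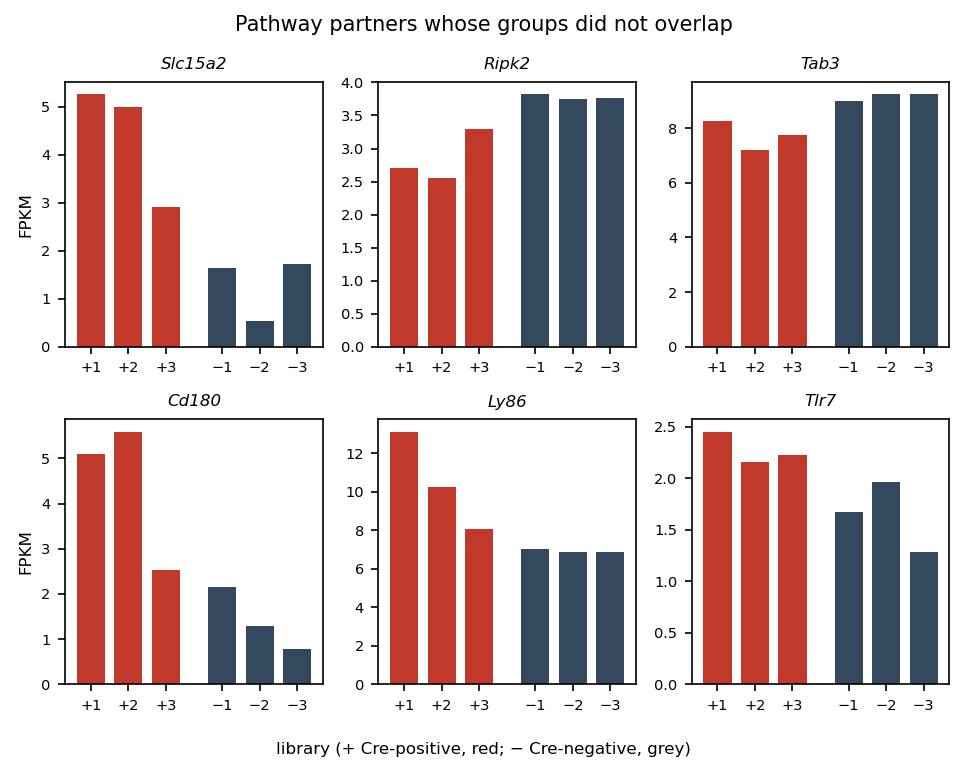
FPKM per library (red, Cre-positive 1 to 3; grey, Cre-negative 1 to 3) of 6 of the 9 pathway genes whose groups did not overlap. Slc15a2, Cd180, Ly86 and Tlr7 are above the Cre-negative range in all 3 Cre-positive libraries, and Ripk2 and Tab3 are below it. Ripk1, Tirap and Mavs, which are also below it, are not shown.

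Each tested sensor was also set beside 135 tested genes of the pathway and marker lists, by Pearson's r of log2(FPKM + 1) over the 6 libraries, which share tissue of mixed composition and depth. With 135 candidates and 6 points, high values arise easily, and the values are descriptions. Tlr9 was most like the B cell receptor chain Cd79b (r = 0.992, rho = 1), and r was 0.964 over the 4 libraries left without Cre-positive 1 and 2; next came Cd180 (r = 0.980). Nod1 was most like the dendritic cell factors Zbtb46 (r = 0.960, rho = 0.943) and Batf3 (r = 0.916), and r was 0.801 and 0.556 without Cre-negative 2 and 3. Tlr1 was nearest to the collagen gene Col1a1 (r = 0.977, rho = 0.943) and Zbtb46 (r = 0.945), and Nod2 to Slc15a2 (r = 0.873, rho = 0.771) and Cd180 (r = 0.863). Tlr4 was nearest to Cd8a (r = 0.956) and Apoa1 (r = 0.864), and Tlr3 to Irf3 (r = 0.935) and Agr2 (r = 0.919), of which that with Irf3 rested on Cre-positive 3 and Cre-negative 1 (r = 0.490 without them). Tlr2 was nearest to Ang4 (r = 0.895, rho = 0.314) and Acta2 (r = 0.889). Without Cre-negative 1 and Cre-positive 3 the r with Ang4 was 0.788, and without Cre-negative 1 and Cre-positive 2 that with Acta2 was -0.55. Myd88 had no close match, with Tab2 (r = 0.776) and Tbk1 (r = 0.586) the nearest.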

How the data were processed

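Whole ileal tissue of 6 mice was sequenced, 1 library per mouse, 3 per group as the sample titles give them. The authors deposited 1 table of FPKM values; Cuffnorm, Cufflinks, STAR, Trimmomatic, FastQC, SAMtools and bedtools and the builds GRCm38 and mm10 stand in the submitters' processing notes, with settings not given in the sources used here. The 12695 genes whose mean reached 1 FPKM were tested with limma 3.58.1 (R 4.3.3, intensity trend, two-sided) on log2(FPKM + 1), which understates the change of low genes, at an adjusted p of 0.05. The fit was tested on simulated data. Single values were compared by exact permutation tests (scipy 1.17.1). Depth was estimated from the lowest steps of single-transcript genes of GENCODE M21 (GRCm38). Counting errors cover counting only. Listed symbols were matched exactly, and Otulin (Fam105b) and Adgre1 (Emr1) by synonym; Ly6g had no match.

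The sensors, the lists and the tests were chosen with earlier results of these data known. The text names all 9 sensors, from each pathway list the 2 genes with the smallest p and the highest-level gene, and for each tested sensor the 2 most similar listed genes; others are said to be chosen otherwise. Promoter sequences are those of RefSeq (GRCm38.p6). Alternatives were pseudocounts of 0.1 and 5, no filter or 5 FPKM, 3 other scalings, limma without trend, with robust estimation or array weights, a sex term, the replicate number as a block, and each library left out. The replicate numbers do not pair the mice.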

Additional observations from a re-analysis of the deposited data

How the results depend on the processing

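Of 147 alternative fold changes of the 9 sensors, 132 kept their sign, 15 reversed and none passed the threshold (smallest adjusted p = 0.0909, with array weights). Some of these signs could not change. No filter or 5 FPKM, no trend, robust estimation and the replicate block left each fold change as reported and altered only the test. For Tlr5, no filter was the only alternative. As Tlr1, Nod1 and Nod2 did not overlap between the groups, only the other scalings could turn their sign. Another pseudocount, a sex term, array weights or fewer libraries could not. Tlr1, Tlr9, Nod1 and Nod2 kept their sign under every alternative run. Tlr2 did too, but its estimate rested on Cre-negative 1, ranging from -0.25 to -0.0031 with a library left out (-0.0031 without Cre-negative 1). The cause of the reversals was not tested. With array weights Tlr3 reversed to 0.0069, on rescaling to 0.097, and with a library left out it ranged between -0.10 and 0.053, positive without Cre-positive 1, Cre-positive 2 or Cre-negative 1. It was 0.18 with Cre-positive 3 alone. Tlr4 reversed to -0.00066 with median-of-ratios scaling, -0.050 under quantile normalization and, with a library left out, ranged between -0.046 and 0.12, negative without Cre-positive 1, Cre-positive 2 (-8.5e-05) or Cre-negative 1. It was -0.16 with Cre-positive 3 alone. Myd88 reversed to 0.032 on rescaling to an equal sum and 0.0085 without Cre-positive 2, the range with a library left out being -0.16 to 0.0085, and 0.088 with Cre-positive 3 alone.

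The count of all genes called, 0 as reported with 459 at an unadjusted p under 0.05, was 2 with a pseudocount of 0.1 or of 5 and on rescaling, 24 with array weights, 4 with Cre-positive 3 alone and between 0 and 46 with a library left out (46 without Cre-positive 3). With the replicate number as a block it was 1, although same-numbered libraries did not deviate together (r of -0.13, 0.03 and -0.11). The pathway genes called were 1 with array weights and 0 in every other setting. Sensors above the Cre-negative range in every Cre-positive library were 3, where 5.77% of all genes were. With a library left out they were between 3 and 4, where 7.93% to 17.6% of all genes were. With Cre-positive 3 alone they were 5, where 32.8% of all genes were. Fewer libraries make non-overlap easier, and Tlr1, Nod1 and Nod2 could not drop out of these counts. Ratios that did not overlap were 1, between 1 and 5 with a library left out, and 0 with a pseudocount of 1. At about 13 to 36 fragments per library, depth limits Tlr5 most.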
